A study of Mus musculus with 4 samples.

Results

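The genes described here are the matrix metalloproteinases (MMPs), the ADAMTS proteases, the ADAMTS-like proteins and the tissue inhibitors of metalloproteinases (TIMPs), measured in cultured mouse ureters. They were chosen by name, as every gene name of the array that begins with Mmp, Adamts, Adamtsl or Timp followed by a digit. This gave 51 genes of the 29924 gene names, with 74 probes. They comprised 23 *Mmp*, 19 *Adamts*, 5 *Adamtsl* and 4 *Timp* genes.

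The ureters came from newborn (P0) NMRI mice and were explanted and cultured for 8 days. The mutants were *Pax2-cre/+; Pparg fl/fl* (*Pparg-cKO*), and the controls were littermates without cre, recorded as *Pparg (fl/?)*. In *Pparg-cKO* mice *Pax2-cre* recombines the nephric duct and its derivatives, the ureteric epithelium and the collecting ducts, so that mesenchymal cells keep *Pparg*. Both genotypes were cultured either with DMSO, the solvent, or with 2 µM purmorphamine, an agonist of sonic hedgehog (SHH) signaling. RNA was pooled by sex, and each of the 4 arrays compared the purmorphamine pool with the DMSO pool of one genotype and sex. Each of the 4 groups therefore had 2 pools, a male one (replicate 1) and a female one (replicate 2), with opposite dyes in the 2 sexes, so that sex, dye and array cannot be told apart within a group. All p-values below measure the spread between these few pools. No exact test of 2 pools against 2 can reach significance, and the tests are those of limma fits across all genes.

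MMPs are zinc-dependent endopeptidases that cleave collagens, laminins, proteoglycans and many cell surface proteins. Most are secreted as inactive proforms, and TIMPs block the active site of the mature enzymes. ADAMTS proteases carry thrombospondin repeats and include the processors of procollagen, such as ADAMTS2, and the hyalectanases ADAMTS1, ADAMTS4, ADAMTS5 and ADAMTS9, which cut versican and aggrecan, whereas ADAMTS-like proteins share the repeats but lack the protease domain. In epithelial organs most of these genes are transcribed in mesenchymal, endothelial or immune cells, and *Mmp7* (matrilysin) is the member best known from epithelia.

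A spot counted as well above background by the call of the scanner software, and a gene was tested where a probe exceeded it in both pools of a group. Of the 51 genes, 39 were well above background in all 8 channels, 5 in some and 7 in none, and 42 were tested. The genes above background in all 8 channels were 15 of 23 MMPs, 16 of 19 ADAMTS proteases, all 5 ADAMTS-like genes and 3 of 4 TIMPs. *Mmp1a*, *Mmp20*, *Mmp21*, *Mmp25*, *Adamts13*, *Adamts18* and *Adamts20* were above it in none. *Mmp1b* and *Timp4* were above it in 3 channels each and were not tested. *Mmp24* was above it in both pools of the *Pparg-cKO* purmorphamine group and in the female pool of either control group. *Mmp28* was above it in the 4 control pools. Where both pools of 1 group lay at background, the change is known only as a lower bound. The largest of these bounds was 1.09-fold, and none of the changes was called. The members varied more between the 2 pools of a group than the average gene: the median difference between the male and the female DMSO control pools was 0.33 on the log2 scale for the 42 members and 0.17 for all 20231 genes. *Mmp8*, *Mmp9*, *Mmp10* and *Mmp13* differed by over 1 on the log2 scale between those 2 pools, higher in the male pool, whereas 1.59% of all genes differed as much.

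As a check of the labels, the SHH target genes *Ptch1* and *Hhip* were higher with purmorphamine by 1.62 and 2.19 on the log2 scale in *Pparg-cKO* ureters (limma, Benjamini-Hochberg adjusted p = 0.014 and 0.0164) and by 1.00 and 1.33 in control ureters (adjusted p = 0.0427 and 0.062). A further target, *Gli1*, differed by 1.34 in *Pparg-cKO* and 1.06 in control ureters and was called in neither (limma, adjusted p = 0.0515 and 0.114). The *Pparg* probe was not lower but higher in the mutants, by 0.51 with DMSO and 0.88 with purmorphamine on the log2 scale (limma, adjusted p = 0.198 and 0.0473). It does not check the genotype: in the study's methods the deletion removes exons of *Pparg* without ending transcription of the rest, and the place of the probe in the gene was not analysed here. The lists of marker genes for urothelium, fibroblasts, smooth muscle, macrophages and leukocytes, neutrophils, endothelium and fat were all measured, and none of their genes was at background in all 8 channels. Because whole ureters were measured, fewer cells of a type and less RNA per cell cannot be told apart.

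**Figure D1:**
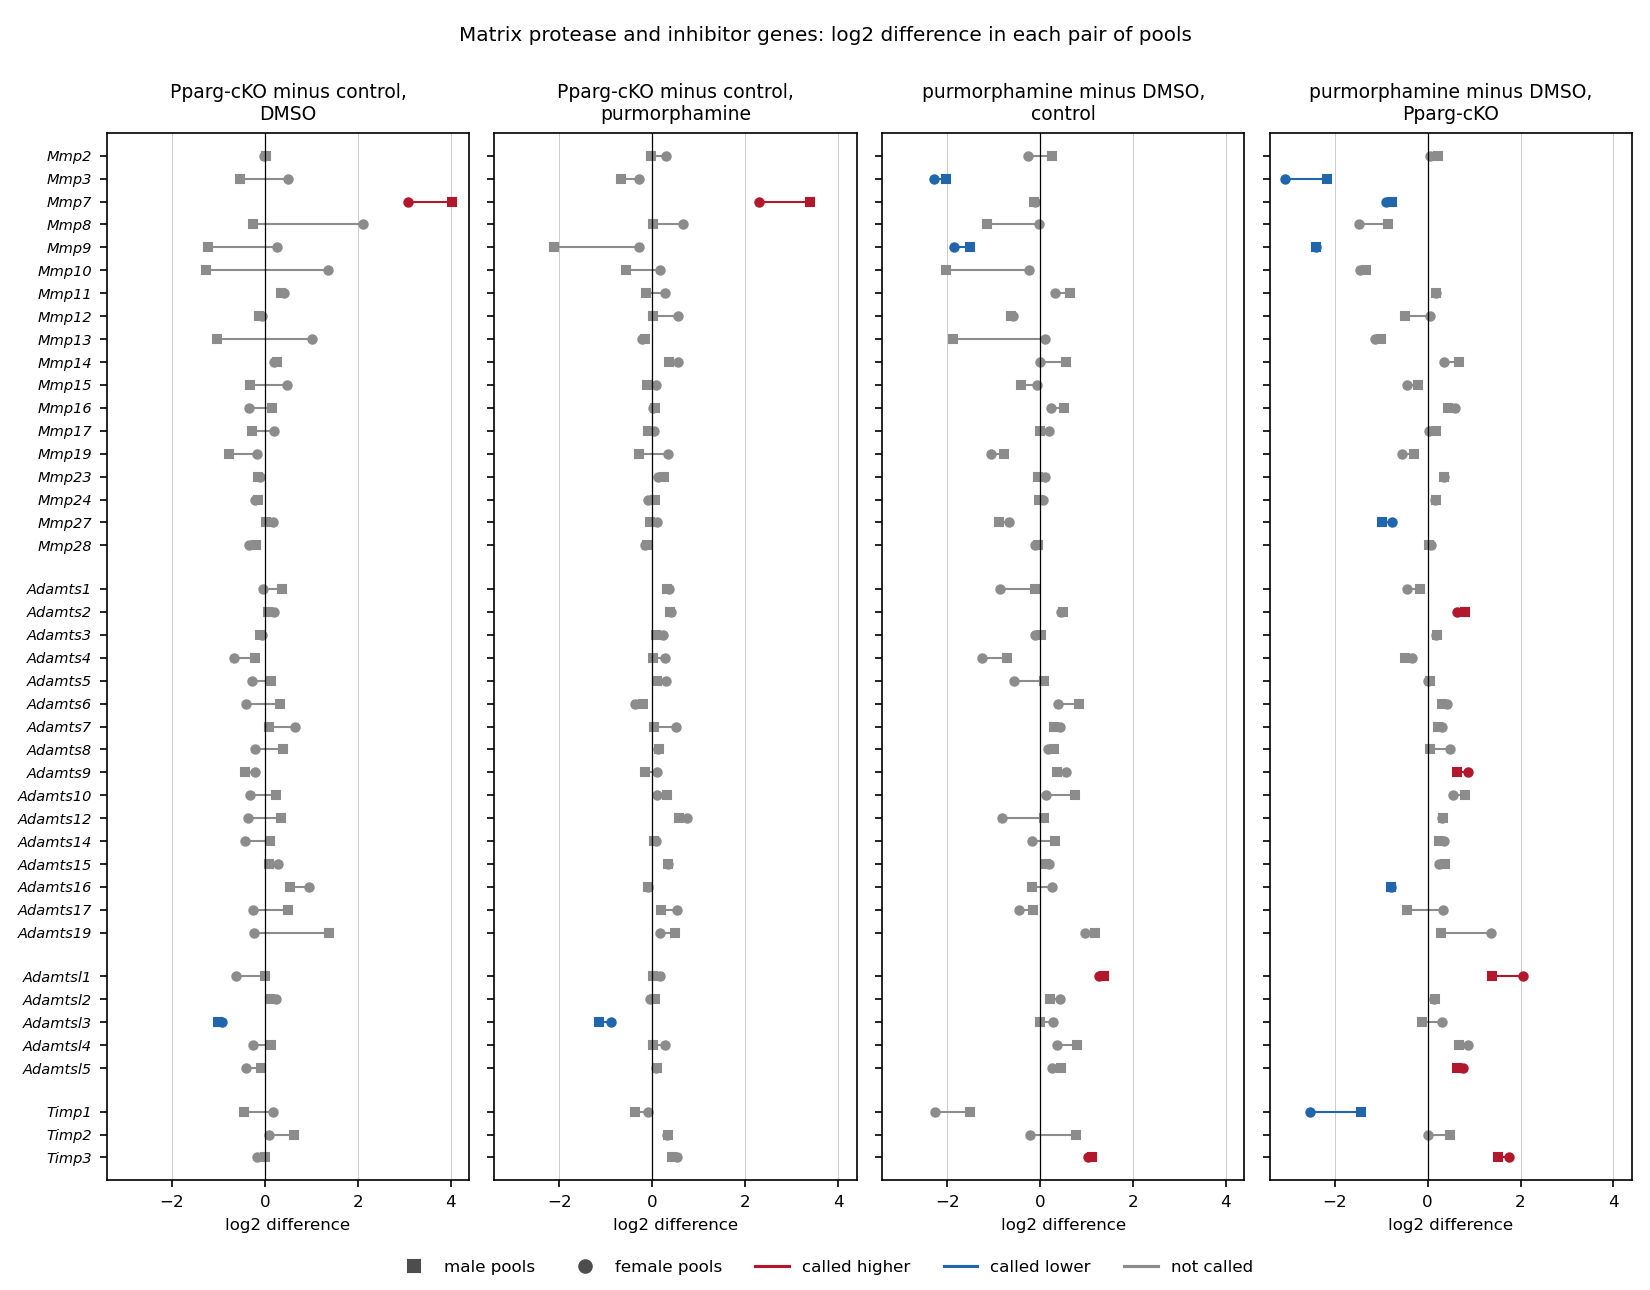
Log2 difference (x axis) of the 42 tested genes, 1 gene per row and grouped as MMP, ADAMTS, ADAMTS-like and TIMP, in the 4 comparisons of the design. Squares are the male and circles the female pair of pools, and red and blue mark genes called higher or lower by limma: *Mmp7* stood to the right at 3.56 and 2.84 between the genotypes, and *Mmp3*, *Mmp9* and *Timp1* stood furthest to the left with purmorphamine.

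The first comparison asked which of these genes depended on epithelial *Pparg* in the 8-day culture. With DMSO, the mutants had more *Mmp7* and less *Adamtsl3* RNA, and no other member was called. This is 1 of 42 genes in each direction (2.38%), against 2.00% of all genes called higher and 1.90% called lower. The median log2 difference was -0.02 over the 42 members and 0.00 over all genes. MMPs lay on both sides, 8 above and 10 below 0, as did the ADAMTS genes with 8 and 8. Over both treatments, all 4 *Pparg-cKO* pools lay above all 4 control pools for 1 member, *Mmp7* (2.38%, against 5.61% of all genes), and below them for 2, *Adamtsl3* and *Mmp28* (4.76%, against 7.74%), the latter at the detection limit.

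*Mmp7* encodes matrilysin, a small secreted protease without a hemopexin domain. Its log2 intensity in DMSO was 6.77 and 6.42 in the male and female control pools and 10.81 and 9.51 in the *Pparg-cKO* pools. In purmorphamine it was 6.64 and 6.32 in the control pools and 10.03 and 8.62 in the *Pparg-cKO* pools. All 4 mutant pools lay above all 4 control pools, by at least 1.85 on the log2 scale, and the probe was well above background in every mutant pool but in only 1 of the 2 control pools of either treatment, the male one. The fitted difference was 3.56 ± 0.53 (SE, n = 2 pools per group) with DMSO (limma, adjusted p = 0.0161) and 2.84 ± 0.53 with purmorphamine (adjusted p = 0.0418). *Mmp7* was tested only because the mutant groups passed the filter on dim probes, and since the control level lay at the detection limit, the size of these differences depends on the background correction. Without that filter the call was kept with DMSO (adjusted p = 0.0393) and lost with purmorphamine (adjusted p = 0.0813). *Mmp7* was the member that varied most over the 8 pools, with a range of 4.49 on the log2 scale.

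*Adamtsl3* encodes an ADAMTS-like glycoprotein of the extracellular matrix. Its log2 intensity in DMSO was 8.03 and 7.84 in the male and female control pools and 7.02 and 6.93 in the *Pparg-cKO* pools. In purmorphamine it was 8.03 and 8.13 in the control pools and 6.89 and 7.23 in the *Pparg-cKO* pools. The 4 mutant pools thus lay below the 4 control pools without overlap, and the probe was above background in all 8. The difference was -0.96 ± 0.14 with DMSO (limma, adjusted p = 0.0152) and -1.02 ± 0.14 with purmorphamine (adjusted p = 0.0181).

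With purmorphamine in both genotypes the same 2 genes were called, *Mmp7* higher and *Adamtsl3* lower, 1 of 42 in each direction against 1.24% and 1.90% of all genes. The median difference of the members was 0.11, against 0.00 for all genes, and 13 of the 16 ADAMTS genes were above 0, the highest being *Adamts12* at 0.67 (adjusted p = 0.201). *Mmp9*, which encodes the gelatinase B of macrophages and neutrophils, differed by -1.21 ± 0.58 without a call (adjusted p = 0.392), and its 2 control pools with purmorphamine were far apart at 12.26 and 10.57. Both genotype comparisons rest on few pools. Without the male or the female control array *Mmp7* was no longer called with DMSO (adjusted p = 0.132 and 0.17) or with purmorphamine (adjusted p = 0.204 and 0.299), nor was *Adamtsl3* (adjusted p = 0.133 and 0.111 with DMSO, 0.125 and 0.165 with purmorphamine). *Adamtsl3* was also lost with DMSO without the male or the female *Pparg-cKO* array (adjusted p = 0.0534 and 0.0765), with purmorphamine without the male one (adjusted p = 0.148), and under both treatments with the scanner's processed signals scaled to their 75th percentile (adjusted p = 0.0504 and 0.0636), where *Mmp7* was lost with purmorphamine (adjusted p = 0.076). Markers of other cells also differed between the genotypes. Of the urothelial markers, 1 of 9 was called higher and 2 lower with DMSO, and 1 and 1 with purmorphamine, with medians of -0.24 and -0.40. Of the 4 endothelial markers 1 was higher with DMSO and none with purmorphamine, with medians of 0.61 and 0.58. The 4 tested fat markers had medians of -1.66 and -2.61, with none called, and the summed intensity of the fat list was 63560 and 72870 in the control DMSO pools against 31200 and 25210 in the mutant ones. With purmorphamine that sum was 66000 and 50950 against 6511 and 35170. The fibroblast, smooth muscle and macrophage lists had medians between -0.01 and 0.13, with none called, and the neutrophil medians were 0.24 and -0.25. The part of these in the *Mmp7* and *Adamtsl3* differences was not tested.

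**Figure D2:**
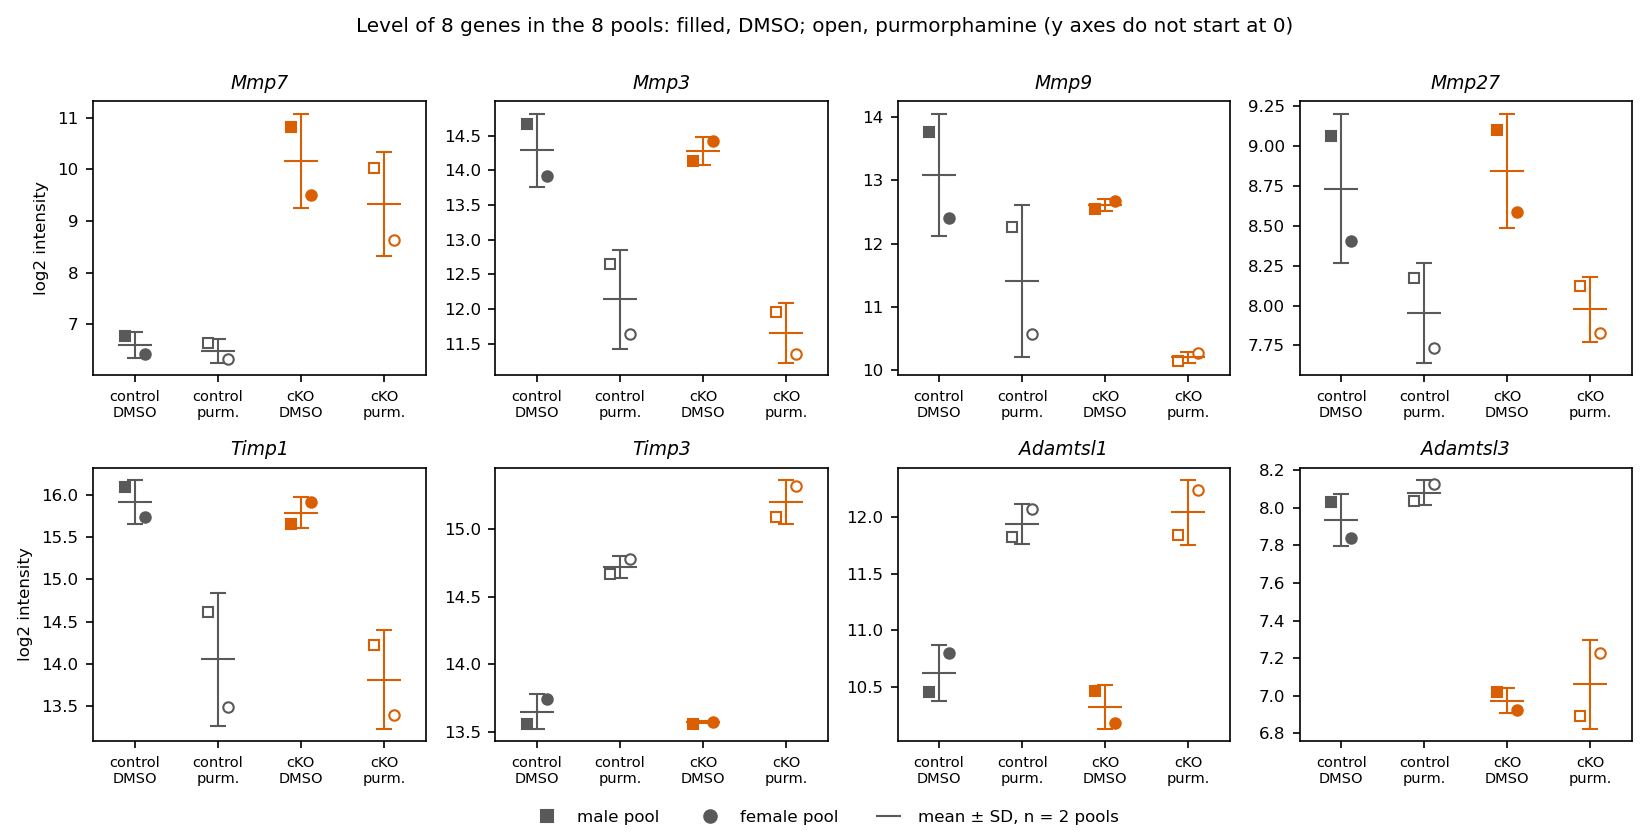
Log2 intensity (y axis, a separate scale for each gene that does not start at 0) of 8 genes in the 4 groups, with squares for male pools, circles for female pools, and the mean ± SD of the 2 pools. *Mmp7* and *Adamtsl3* separate the genotypes under both treatments, while *Mmp3*, *Mmp9*, *Mmp27*, *Timp1*, *Timp3* and *Adamtsl1* separate the treatments within each genotype.

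The second question was how the agonist changed these genes in ureters with and without epithelial *Pparg*. In control ureters *Timp3* and *Adamtsl1* were higher and *Mmp3* and *Mmp9* were lower with purmorphamine. These were 2 of 42 genes in each direction (4.76%), against 0.405% of all genes called higher and 1.12% called lower. In *Pparg-cKO* ureters 5 members were higher, *Timp3*, *Adamtsl1*, *Adamtsl5*, *Adamts2* and *Adamts9*, and 6 were lower, *Mmp3*, *Mmp9*, *Mmp7*, *Mmp27*, *Timp1* and *Adamts16*. These were 11.9% and 14.3% of the 42 members, against 2.02% and 3.10% of all genes. The purmorphamine effects in the 2 genotypes were measured on different arrays and share no pool. Of the 42 members, 37 (88.1%) had the same sign in both, compared with 76.4% of all genes, and the absolute change was larger in *Pparg-cKO* ureters for 27 members (64.3%, against 52.9% of all genes). The median absolute change of the members was 0.37 in control and 0.39 in *Pparg-cKO* ureters, and that of all genes was 0.15 in both. All 4 purmorphamine pools lay above all 4 DMSO pools for 9 members (21.4%, against 9.91% of all genes), the 5 called higher in *Pparg-cKO* ureters and *Adamts6*, *Adamts10*, *Adamtsl4* and *Mmp16*. They lay below for 5 members (11.9%, against 9.39%), *Mmp3*, *Mmp9*, *Mmp27*, *Timp1* and *Adamts4*.

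Stromelysins cleave proteoglycans, laminin and fibronectin and activate other proforms. The log2 intensity of *Mmp3*, stromelysin 1, was 14.67 and 13.92 in the male and female control pools with DMSO and 12.65 and 11.64 with purmorphamine. In the *Pparg-cKO* pools it was 14.14 and 14.43 with DMSO and 11.96 and 11.35 with purmorphamine. All 4 purmorphamine pools lay below all 4 DMSO pools. *Mmp3* fell by 2.15 ± 0.23 on the log2 scale in control ureters, 4.44-fold (limma, adjusted p = 0.0358), and by 2.63 ± 0.23 in *Pparg-cKO* ureters, 6.17-fold (adjusted p = 0.0158). Between the genotypes *Mmp3* was not called (log2 difference -0.01 ± 0.39 with DMSO). *Mmp10*, stromelysin 2, was at 10.79 and 7.89 in the control DMSO pools, 8.77 and 7.64 in the control purmorphamine pools, 9.54 and 9.25 in the *Pparg-cKO* DMSO pools and 8.21 and 7.80 in the *Pparg-cKO* purmorphamine pools. Both *Pparg-cKO* pairs were over 2-fold lower with purmorphamine (log2 differences -1.33 and -1.45), without a call (adjusted p = 0.133), and the control pairs differed widely from each other at -2.02 and -0.25.

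The gelatinases MMP2 and MMP9 cleave denatured collagen and the type IV collagen of basement membranes. The log2 intensity of *Mmp9* was 13.77 and 12.41 in the male and female control pools with DMSO and 12.26 and 10.57 with purmorphamine. In the *Pparg-cKO* pools it was 12.55 and 12.68 with DMSO and 10.15 and 10.27 with purmorphamine. All 4 purmorphamine pools lay below all 4 DMSO pools, by only 0.15 where the male control pool with purmorphamine met the female control pool with DMSO. *Mmp9* fell by 1.68 ± 0.12 in control ureters (adjusted p = 0.0189) and by 2.40 ± 0.12, 5.29-fold, in *Pparg-cKO* ureters (adjusted p = 0.00976), the lowest adjusted p of a member in any comparison. *Mmp2*, by contrast, stayed between 14.69 and 15.01 in all 8 pools, and its fitted differences were at most 0.14 in size in the 4 comparisons, none called. *Mmp14*, the membrane-type protease that activates the proform of MMP2, was at 12.88 and 13.00 in the control DMSO pools, 13.45 and 12.99 in the control purmorphamine pools, 13.15 and 13.20 in the *Pparg-cKO* DMSO pools and 13.81 and 13.55 in the *Pparg-cKO* purmorphamine pools. Its differences ranged from 0.23 to 0.51 and were not called.

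*Mmp7* was also lower with the agonist in *Pparg-cKO* ureters, where it fell by 0.83 ± 0.10, 1.78-fold, with differences of -0.77 and -0.89 in the male and female pairs (limma, adjusted p = 0.0246). In control ureters, at the detection limit, the difference was -0.11 ± 0.10 (adjusted p = 0.636). The purmorphamine-treated *Pparg-cKO* pools still lay above every control pool. The higher level of *Mmp7* in *Pparg-cKO* ureters with DMSO and its decrease with purmorphamine share the *Pparg-cKO* DMSO pools, so that the 2 differences are not independent.

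*Mmp27*, an MMP of which little is known, was at 9.07 and 8.40 in the control DMSO pools, 8.17 and 7.73 in the control purmorphamine pools, 9.10 and 8.59 in the *Pparg-cKO* DMSO pools and 8.12 and 7.83 in the *Pparg-cKO* purmorphamine pools. It fell by 0.87 ± 0.12 in *Pparg-cKO* ureters (limma, adjusted p = 0.0313) and differed by -0.78 ± 0.12 in control ureters without a call (adjusted p = 0.063). The collagenases *Mmp8* and *Mmp13* gave differences of -1.16 ± 0.30 and -1.06 ± 0.45 in *Pparg-cKO* ureters, both pairs lower, and of -0.58 ± 0.30 and -0.88 ± 0.45 in control ureters, none called. In the female control pair neither collagenase was clearly lower (-0.02 for *Mmp8* and 0.11 for *Mmp13*). *Mmp12*, the macrophage elastase, lay between 15.28 and 16.22 in the 8 pools and was not called, with differences of -0.59 ± 0.15 in control and -0.22 ± 0.15 in *Pparg-cKO* ureters. *Mmp19* differed by -0.91 ± 0.13 in control ureters, just short of a call (adjusted p = 0.0559), and by -0.42 ± 0.13 in *Pparg-cKO* ureters. The other membrane-type proteases *Mmp15*, *Mmp16* and *Mmp17* and the stromelysin-related *Mmp11* were not called in any comparison.

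A cluster of 10 MMP genes lies on chromosome 9, chr9:7272514-7699585 in GRCm38.p6, in the order *Mmp13*, *Mmp12*, *Mmp1b*, *Mmp3*, *Mmp1a*, *Mmp10*, *Mmp8*, *Mmp27*, *Mmp20* and *Mmp7*. It spans 427.1 kb, and 7 of its genes were tested. With purmorphamine all 7 had a negative fitted difference in both genotypes, with a median of -0.78 in control and -1.06 in *Pparg-cKO* ureters. *Mmp3* was called in both genotypes, *Mmp7* and *Mmp27* in *Pparg-cKO* ureters only, and the other tested cluster genes in neither. Single pairs lay above 0, the female control pair of *Mmp13* (0.11) and the female *Pparg-cKO* pair of *Mmp12* (0.05). In control ureters *Mmp7* lay at the detection limit. Of the 11 MMP genes elsewhere, 4 were below 0 in control and 3 in *Pparg-cKO* ureters, with medians of 0.02 and 0.14. Between the genotypes, with DMSO, 4 of the 7 genes were above 0 and 3 below, with a median of 0.05. *Mmp7*, at the end of the cluster, was the only one called there. The grouping by position was made after these values had been seen, and no test was applied to it.

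**Figure D3:**
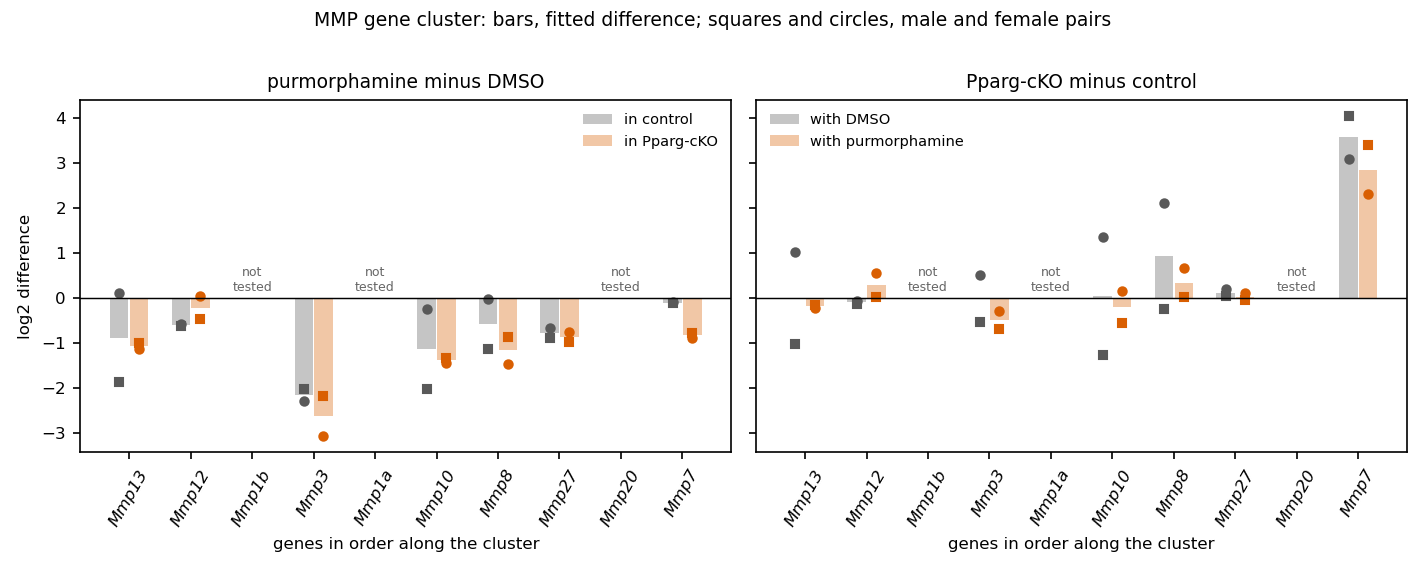
Log2 difference (y axis) of the chromosome 9 MMP genes in their order along the cluster (x axis, not to scale), for purmorphamine minus DMSO (left) and *Pparg-cKO* minus control (right). Bars are fitted differences, squares and circles the male and female pairs. On the left the bars of all 7 tested genes point downward, from -0.11 for *Mmp7* in control to -2.63 for *Mmp3* in *Pparg-cKO* ureters. The female pairs of *Mmp13* in control and of *Mmp12* in *Pparg-cKO* ureters lie above 0. On the right *Mmp7* alone stands far above 0 in both pairs.

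The bases before the transcription start of some of the genes that changed are printed here. Most of the cluster genes, though not all, hold short elements there that the choice of genes did not use. RefSeq windows (GRCm38.p6) were found for 36 of the 51 members, and the 250 bases before each start were searched on both strands for TGAGTCA, the AP-1 element, for AGGAAG, the PEA3 element of ETS factors, and for TATAAA, the TATA box. TGAGTCA was present in 7 of the 36 members, *Mmp3*, *Mmp7*, *Mmp10*, *Mmp12*, *Mmp13*, *Mmp1a* and *Mmp1b*, all of them among the 10 cluster genes, and in 0 of the 26 members elsewhere. It was present in 4.46% of all 32851 windows. TATAAA was found in 7 of the 10 cluster genes and 3 of the 26 other members, against 12.4% of all windows, and AGGAAG in 6 of 10 and 7 of 26, against 29.5%. GACCACCCA, the GLI site through which SHH signaling acts, and a direct repeat of AGGTCA with 1 base between the copies, the form bound by PPARG, were in no member window and in 0.225% and 0.0335% of all windows. At such low shares a match of either in the 39 member windows was unlikely in advance, so that their absence says nothing about these factors. All these matches are descriptions of letters, and nothing about binding was measured. No window was found for 15 members, all outside the cluster, among them *Mmp9*, *Adamtsl1* and *Adamts16*, which were called for the agonist. These members were not searched, and whether they hold any of the elements was not tested. The counts outside the cluster therefore leave out several of the genes that changed.

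The 5 windows below run 5′ to 3′ on the plus strand and end at the base before the start site, with the AP-1, PEA3 and TATA elements named above in capitals on either strand (the PEA3 element also as its complement CTTCCT). They lie at chr9:7691840-7692089 (*Mmp7*), chr9:7445572-7445821 (*Mmp3*), chr9:7571146-7571395 (*Mmp27*), chrX:20869916-20870165 (*Timp1*) and chr10:86300162-86300411 (*Timp3*). *Mmp7* and *Mmp3* hold all 3 elements, with the AP-1 element beginning 63 and 46 bases before the start, *Mmp27* holds none of them, *Timp1* holds the PEA3 element at 2 places and *Timp3* at 1. None of the marked elements overlap.
Mmp7: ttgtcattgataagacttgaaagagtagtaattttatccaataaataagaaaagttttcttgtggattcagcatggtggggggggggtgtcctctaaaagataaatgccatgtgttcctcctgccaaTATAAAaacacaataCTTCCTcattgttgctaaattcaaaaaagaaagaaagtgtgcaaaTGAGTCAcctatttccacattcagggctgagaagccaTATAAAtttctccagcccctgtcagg
Mmp3: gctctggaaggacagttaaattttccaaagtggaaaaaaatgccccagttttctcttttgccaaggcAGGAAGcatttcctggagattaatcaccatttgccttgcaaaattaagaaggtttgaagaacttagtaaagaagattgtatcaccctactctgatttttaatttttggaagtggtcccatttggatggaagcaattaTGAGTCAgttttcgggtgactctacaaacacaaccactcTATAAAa
Mmp27: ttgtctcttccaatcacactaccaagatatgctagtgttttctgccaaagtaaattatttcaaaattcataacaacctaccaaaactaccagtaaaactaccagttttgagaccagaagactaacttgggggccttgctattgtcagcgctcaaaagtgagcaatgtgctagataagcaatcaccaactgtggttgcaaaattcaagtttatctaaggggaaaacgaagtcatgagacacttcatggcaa
Timp1: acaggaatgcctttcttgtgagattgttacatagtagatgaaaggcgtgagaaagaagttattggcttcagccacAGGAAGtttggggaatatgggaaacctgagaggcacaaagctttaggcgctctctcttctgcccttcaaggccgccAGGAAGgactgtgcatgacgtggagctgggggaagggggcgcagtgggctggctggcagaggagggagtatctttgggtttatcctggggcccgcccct
Timp3: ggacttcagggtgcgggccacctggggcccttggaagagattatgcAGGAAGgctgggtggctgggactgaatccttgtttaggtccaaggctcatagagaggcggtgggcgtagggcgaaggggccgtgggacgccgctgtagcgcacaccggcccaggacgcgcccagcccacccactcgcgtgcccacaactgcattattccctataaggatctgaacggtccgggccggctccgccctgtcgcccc

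Of the inhibitors, *Timp1* and *Timp3* moved in opposite directions with the agonist. *Timp3*, which encodes the TIMP that binds to the matrix and also inhibits ADAMTS proteases, was at 13.56 and 13.74 in the male and female control pools with DMSO and at 14.67 and 14.78 with purmorphamine. In the *Pparg-cKO* pools it was at 13.56 and 13.57 with DMSO and at 15.09 and 15.32 with purmorphamine. The 4 purmorphamine pools lay above the 4 DMSO pools, and the pools of a group differed by 0.23 at most. *Timp3* rose by 1.08 ± 0.11 in control ureters, 2.11-fold (limma, adjusted p = 0.035), and by 1.64 ± 0.11 in *Pparg-cKO* ureters, 3.11-fold (adjusted p = 0.014).

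*Timp1*, the soluble inhibitor induced in many inflamed tissues, was at 16.10 and 15.74 in the control DMSO pools and at 14.61 and 13.49 in the control purmorphamine pools. In the *Pparg-cKO* pools it was at 15.66 and 15.92 with DMSO and at 14.22 and 13.39 with purmorphamine. All 4 purmorphamine pools were below all 4 DMSO pools, the female ones further than the male ones. *Timp1* fell by 1.98 ± 0.31 in *Pparg-cKO* ureters, 3.95-fold (adjusted p = 0.0386). In control ureters the difference was as large, -1.88 ± 0.31, over 2-fold in both pairs, and was not called (adjusted p = 0.0704). *Timp2*, the inhibitor that takes part in the activation of proMMP2, was at 15.17 and 15.87 in the control DMSO pools, 15.94 and 15.65 in the control purmorphamine pools, 15.80 and 15.96 in the *Pparg-cKO* DMSO pools and 16.27 and 15.96 in the *Pparg-cKO* purmorphamine pools. Its groups overlapped, and its differences of 0.24 to 0.36 were not called. A second, dimmer *Timp2* probe gave -0.11 for the agonist in control and 0.17 in *Pparg-cKO* ureters. Between the genotypes it gave 0.10 with DMSO and 0.37 with purmorphamine (limma, unadjusted p = 0.312 and 0.00513). *Timp4* was above background in only 3 of the 8 channels. In the annotation *Timp1*, *Timp3* and *Timp4* each lie inside a synapsin gene, *Syn1*, *Syn3* and *Syn2*. With purmorphamine the *Syn3* probe differed by 0.43 and 0.23, the *Syn1* probe by -0.46 and -0.13 and the *Syn2* probe by -0.0006 and 0.59 in control and *Pparg-cKO* ureters. No *Syn3* probe was above background in more than 5 of the 8 channels.

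Among the ADAMTS proteases, 10 of 16 lay above 0 with purmorphamine in control and 12 of 16 in *Pparg-cKO* ureters, and the 3 calls were in the latter. *Adamts2*, the procollagen I N-proteinase, was at 13.04 and 12.93 in the control DMSO pools, 13.54 and 13.38 in the control purmorphamine pools, 13.11 and 13.14 in the *Pparg-cKO* DMSO pools and 13.91 and 13.77 in the *Pparg-cKO* purmorphamine pools. It rose by 0.72 ± 0.11 in *Pparg-cKO* ureters (limma, adjusted p = 0.0348) and differed by 0.47 ± 0.11 in control ureters (adjusted p = 0.109). *Adamts9*, a versican-cleaving protease, was at 11.61 and 11.59, 11.98 and 12.14, 11.19 and 11.38, and 11.82 and 12.25 in the same order of groups. It rose by 0.75 ± 0.12 in *Pparg-cKO* ureters (adjusted p = 0.0401) with a difference of 0.46 ± 0.12 in control ureters (adjusted p = 0.136). With the probes given, the purmorphamine pools of both genes lay above the DMSO pools of both genotypes. A second probe for *Adamts2* gave 0.58 in *Pparg-cKO* and 0.17 in control ureters, and its treatments overlapped. A second probe for *Adamts9* gave 0.25 in *Pparg-cKO* and 0.22 in control ureters.

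*Adamts16*, which has been linked to blood pressure in rats, went the other way. It was at 7.26 and 6.69 in the control DMSO pools, 7.08 and 6.94 in the control purmorphamine pools, 7.79 and 7.64 in the *Pparg-cKO* DMSO pools and 7.0 and 6.84 in the *Pparg-cKO* purmorphamine pools. The *Pparg-cKO* DMSO pools were the highest and the other 3 groups overlapped. *Adamts16* fell by 0.79 ± 0.14 with purmorphamine in *Pparg-cKO* ureters (adjusted p = 0.0451), and it differed by 0.74 ± 0.19 between the genotypes with DMSO without a call (adjusted p = 0.0923), 2 differences that share the *Pparg-cKO* DMSO pools. A second, dimmer probe gave -0.25 for the agonist, and with the mean over probes the call was lost (log2 difference -0.52, adjusted p = 0.0751). Of the hyalectanases, *Adamts9* alone was called, as given above. *Adamts4* differed by -0.99 ± 0.16 in control ureters (adjusted p = 0.0681) and by -0.41 ± 0.16 in *Pparg-cKO* ureters, *Adamts1* by -0.48 ± 0.21 and -0.30 ± 0.21, and *Adamts5* by -0.24 ± 0.17 and 0.04 ± 0.17. *Adamts19* differed by 1.08 ± 0.26 in control ureters, with both pairs near 2-fold (log2 differences 1.19 and 0.97), and was not called (adjusted p = 0.125).

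All 5 ADAMTS-like genes lay above 0 with purmorphamine in both genotypes, with a median of 0.36 in control and 0.71 in *Pparg-cKO* ureters. *Adamtsl1* (punctin) was at 10.45 and 10.80 in the control DMSO pools, 11.82 and 12.07 in the control purmorphamine pools, 10.46 and 10.18 in the *Pparg-cKO* DMSO pools and 11.84 and 12.24 in the *Pparg-cKO* purmorphamine pools. The 4 purmorphamine pools lay above the 4 DMSO pools. *Adamtsl1* rose by 1.32 ± 0.18 in control ureters, 2.50-fold (limma, adjusted p = 0.0495), and by 1.72 ± 0.18 in *Pparg-cKO* ureters, 3.29-fold (adjusted p = 0.0195). Its 2 dimmer probes were also higher, by 0.46 and 0.30 in control and by 0.56 and 0.58 in *Pparg-cKO* ureters. *Adamtsl5* was at 9.72 and 9.78 in the control DMSO pools, 10.17 and 10.04 in the control purmorphamine pools, 9.63 and 9.36 in the *Pparg-cKO* DMSO pools and 10.28 and 10.13 in the *Pparg-cKO* purmorphamine pools. It rose by 0.70 ± 0.11 in *Pparg-cKO* ureters (adjusted p = 0.0383), but its second probe gave -0.14, so the 2 probes disagree. *Adamtsl4* differed by 0.78 ± 0.14 in *Pparg-cKO* ureters (adjusted p = 0.0517), and *Adamtsl3*, the member that was lower in the mutants, by 0.15 and 0.09 in control and *Pparg-cKO* ureters.

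**Figure D4:**
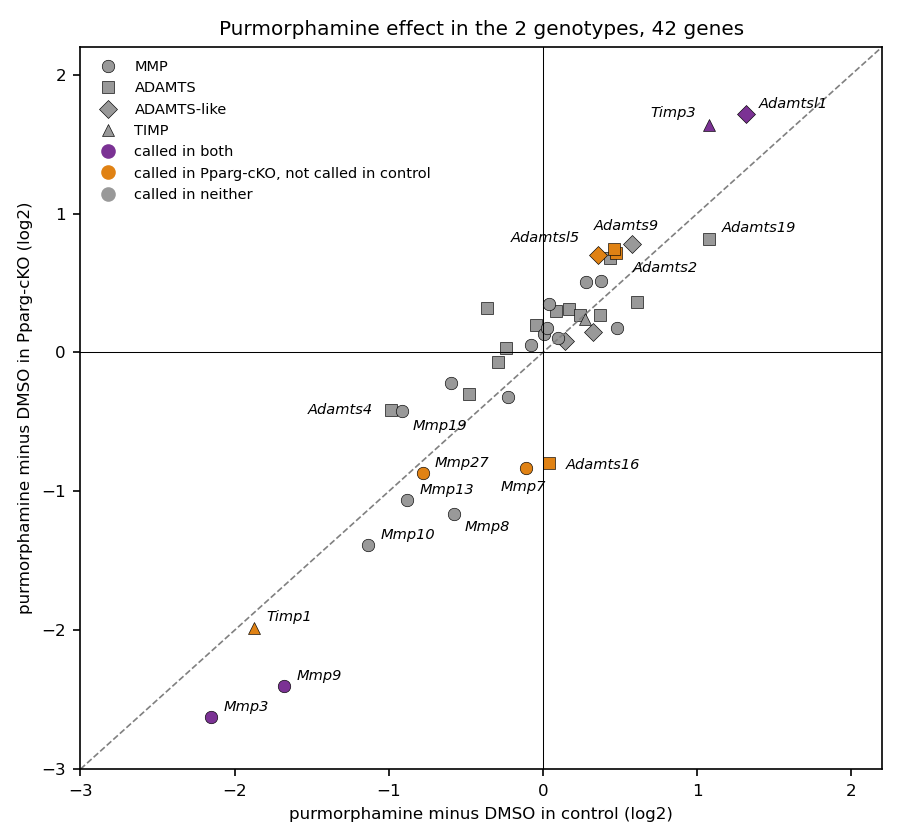
Log2 difference between purmorphamine and DMSO in control (x axis) and in *Pparg-cKO* ureters (y axis) for the 42 tested genes, with symbols for the 4 families and colors for the limma calls; the dashed line marks equal differences. *Mmp3*, *Mmp9* and *Timp1* lie at the lower left and *Timp3* and *Adamtsl1* at the upper right, and *Mmp7* and *Adamts16* lie below 0 on the y axis and near 0 on the x axis.

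Whether the agonist acted differently in the 2 genotypes was tested as the difference of the 2 effects. No member was called, and of all genes 0% were called. At an unadjusted p under 0.05 there were 2 of 42 members above 0 and 3 below, against 1.58% and 1.73% of all genes. The lowest unadjusted p was 0.00396 for *Mmp7*, with a difference of -0.72 ± 0.14 (limma, adjusted p = 0.98). In control ureters *Mmp7* lay at the detection limit under both treatments, so that a decrease there could hardly have been measured. It was followed by *Adamts16* at -0.83 ± 0.19, *Mmp9* at -0.73 ± 0.17 and *Timp3* at 0.56 ± 0.16 (adjusted p = 1 for each). A larger agonist effect in *Pparg-cKO* ureters, as in the counts of calls above, was thus not established for any single gene.

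The purmorphamine calls rest on 2 arrays per genotype. With the replicate number, which is the sex and the dye orientation, as a block, no member was called in either genotype. The adjusted p was 0.0508 for *Mmp3*, *Mmp9* and *Timp3* in *Pparg-cKO* ureters and 0.0925 for *Mmp3* and *Mmp9* in control ureters. As coded, that fit gave the agonist effect in the male pools, not the mean over both sexes. For *Mmp9* in control ureters it gave -1.595, against -1.68 in the main fit. The calls it lost therefore do not show how the mean effect depends on sex or dye. All 4 calls in control ureters were lost without either control array (adjusted p = 0.121 and 0.107 for *Mmp3*, 0.0594 and 0.0818 for *Mmp9*), and in *Pparg-cKO* ureters 6 and 3 members were called in place of 11 without the male or the female *Pparg-cKO* array. Without either *Pparg-cKO* array the control ureters gave 8 calls in place of 4. With the processed signals scaled to their 75th percentile no member was called for the agonist in either genotype, with a lowest adjusted p of 0.0807 for *Mmp9* and *Timp3* in *Pparg-cKO* ureters. Markers of other cells moved with the treatment. Of 8 macrophage and leukocyte markers, 2 were lower with purmorphamine in control and 3 in *Pparg-cKO* ureters, with medians of -0.74 and -0.57. Their summed intensity was 99320 and 68000 in the control DMSO pools against 61460 and 40350 with purmorphamine, and 85190 and 73380 against 51300 and 53110 in the *Pparg-cKO* pools. Macrophages are known to express *Mmp9* and *Mmp12*, and the part of this decrease in the lower MMPs and *Timp1* was not tested. No neutrophil marker was called, and their sum was highest in the female *Pparg-cKO* DMSO pool, at 21260 against 5100 to 8869 in the other 7 pools. Endothelial markers were higher with purmorphamine, with 1 and 2 of 4 called and medians of 1.07 and 0.88, and the 5 smooth muscle markers had medians of 0.75 and 0.82 with none called. The 6 fibroblast and lamina propria markers had medians of 0.43 and 0.44 with none called. Of the 9 urothelial markers, 2 were called higher and 2 lower in control ureters, and 3 and 2 in *Pparg-cKO* ureters, with medians of -0.001 and -0.34. The 4 tested fat markers had medians of -0.24 and -1.11 with none called. The part of these cell types in the higher *Timp3*, *Adamtsl1*, *Adamts2* and *Adamts9* was not tested.

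Other genes of the matrix protease network were taken from a list of 39 genes, of which 35 were tested. With DMSO the secreted serine protease *Htra1* was higher by 0.68 and *Papln*, which encodes the ADAMTS-related matrix protein papilin, by 0.98 in *Pparg-cKO* ureters, and *Htra3* was lower by 0.59 (limma, adjusted p = 0.0145, 0.0242 and 0.0488). With purmorphamine none of the 35 was called between the genotypes, and 8 had an unadjusted p under 0.05, against 6.69% of all genes above 0 and 8.91% below. The agonist lowered *Tfpi2*, an inhibitor of plasmin and other serine proteases, by 2.50 ± 0.26 in control (adjusted p = 0.035) and 3.0 ± 0.26 in *Pparg-cKO* ureters (adjusted p = 0.0155). It also lowered *Adam8*, a sheddase of myeloid cells, by 0.98 and 0.96 (adjusted p = 0.0405 and 0.0234). In *Pparg-cKO* ureters *Reck*, the membrane-anchored MMP inhibitor, and *Serpinf1* rose by 0.91 and 0.75 and *Papln* fell by 0.93. None of the activators of proMMPs in the list, such as *Furin*, *Plat* and *Plau*, was called in any comparison.

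The rule of the study's methods, an intensity above 100 and a change of at least 1.5-fold in both replicates on the scaled scanner signals, carries no test. It named *Mmp7* as higher between the genotypes under both treatments and no member as lower, 1 of 33 and 1 of 32 members that reached the intensity, against 2.59% and 2.92% of all genes called higher and lower with DMSO and 3.06% and 3.23% with purmorphamine. For the agonist in control ureters it named *Adamts19*, *Adamtsl1* and *Timp3* as higher and *Adamts4*, *Mmp19*, *Mmp3*, *Mmp9* and *Timp1* as lower, 3 and 5 of 31 members, against 2.76% and 3.69% of all genes. For the agonist in *Pparg-cKO* ureters it named 7 of 34 members as higher, adding *Adamts10* and *Adamtsl4* to the 5 called by limma, against 3.88% of all genes. It named 8 as lower, *Mmp3*, *Mmp7*, *Mmp8*, *Mmp9*, *Mmp10*, *Mmp13*, *Mmp27* and *Timp1*, against 4.79%, and did not name *Adamts16*.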

How the data were processed

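Whole ureters were measured on 4 two-colour Agilent arrays, each with a purmorphamine and a DMSO pool of one genotype and sex. Per the submitters' notes the authors extracted the spots with Agilent Feature Extraction 10.7.3.1. The deposited scanner files hold the intensity of each spot (157716 spots of 39429 probes with 29924 gene names) before normalization, and a log10 ratio of red over green, which was used only to check the dye direction. The authors also deposited a table whose signed fold change, taken as a score, follows the log2 ratio of the scaled signals (r = 0.9953 to 0.9977); its columns have a median of 1, and its normalization is not stated. Between 66.3% and 70.5% of spots per channel were well above background, 0 were saturated, and the local background was 21 to 22 in green and 65 to 76 in red; the number of arrays limits the precision.

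Intensities were background-corrected (normexp, offset 50) and loess-normalized in limma 3.58.1 (R 4.3.3; the R package data.table, version 1.17.8), and spots of a probe were averaged. The agonist effect was fitted to the within-array log2 ratios, turned to purmorphamine over DMSO. The genotypes, which never shared an array, were compared after Aquantile normalization in a separate-channel fit (intraspot correlation 0.0636, from 4000 probes). The fits took in 27066 probes, those that exceeded background in the 2 pools of at least one group. Each of the 20231 genes was represented by its brightest probe, and p-values were adjusted by Benjamini-Hochberg over these. A gene was called at an adjusted p under 0.05 with the same direction in both replicates. The fits were also run on simulated data. These held no sex or dye effect shared by same-numbered pools, and no result here rests on that run. Errors are standard errors of the fit.

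For the rule of the methods, processed signals were scaled to a 75th percentile of 1500, with a floor of 15. Values in all pools are given for the members called, for uncalled members with a 2-fold change in both replicates, and for the TIMPs, *Mmp2*, *Mmp14* and *Mmp9*. The members and lists were chosen with earlier results of these data known. Of the 74 probes, 66 matched a RefSeq accession and all 66 had its symbol, and the 51 symbols are in RefSeq. The alternatives were each array left out, a replicate block, the scaled signals, other filters on dim probes, the mean over probes, no Aquantile step and the value table.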

Additional observations from a re-analysis of the deposited data

Results flagged for a closer look

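*Mmp28* (epilysin) met a criterion for a closer look, since its pairs of pools moved in opposite directions in the 2 genotypes. With purmorphamine both control pairs were lower, with a fitted log2 difference of -0.08, and both *Pparg-cKO* pairs were higher, with 0.05. The difference of the effects was 0.13 on the log2 scale and was not called (limma, unadjusted p = 0.397, adjusted p = 1). The probe was above background only in the 4 control pools, so that these values lie at or near the detection limit.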

How the results depend on the processing

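None of the 21 effects of single genes changed sign under the alternatives, in 209 values of a gene under a setting, of which 98 lost the call. The 21 were chosen for 1 direction in both pairs, and several alternatives return the same coefficient. The stable sign was thus largely fixed in advance. The count of called members depended on the processing. With 1 array left out it ranged from 0 to 1 (*Pparg-cKO* against control with DMSO; 2 with all arrays), from 0 to 2 (with purmorphamine; 2), from 0 to 8 (purmorphamine in control; 4) and from 3 to 15 (in *Pparg-cKO*; 11). With the scaled processed signals the counts in that order were 1, 0, 0 and 0, and by the rule of the methods 1, 1, 8 and 15. With probes above background in all 8 channels, 1 member was called between the genotypes under either treatment. Without a filter on dim probes 1 was called between the genotypes with purmorphamine, and 0 and 4 for the agonist in control and *Pparg-cKO* ureters. With the mean over probes 7 were called for the agonist in *Pparg-cKO* ureters, 2 higher and 5 lower, where the brightest probes gave 5 and 6. In control ureters that mean left 1 higher and 2 lower, where the brightest probes gave 2 and 2. With the value table of the series none was called in either genotype (0 and 0). With the replicate block 0 members were called for the agonist in either genotype, and 3 and 2 between the genotypes. For the agonist that fit leaves few degrees of freedom and gives the effect in the male pools, not the mean over both sexes. Beyond sex and dye the labels do not pair the pools, and same-numbered pools deviated together with purmorphamine (r = 0.482) but not with DMSO (r = -0.171). A crossed block, chosen after seeing the data, gave 2 calls with DMSO. The difference of the agonist effects gave 0 calls in every fit run. At an unadjusted p under 0.05 the limma fits of all 4 arrays with 0 calls gave 4 to 7 of the members for that difference. They gave 19 to 22 for the agonist in control, 18 to 19 in *Pparg-cKO* ureters and 7 between the genotypes with purmorphamine. For the limma alternatives the shares of all genes were not computed. In the main fits 1.58% and 1.73% of all genes lay above and below 0 at that p for the difference. The shares were 9.78% and 9.84% for the agonist in control, 9.86% and 12.4% in *Pparg-cKO* ureters, and 6.69% and 8.91% between the genotypes with purmorphamine.

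Sex, dye and array cannot be told apart within a group. Genes near the detection limit (*Mmp7* in control, *Mmp24*, *Mmp28*) have folds that depend on the background correction.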
